A study of Mus musculus with 2 samples.

Results

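Cytochrome P450s outside the steroid pathway were followed in the mouse adrenal gland. The members are the protein-coding genes whose symbol is Cyp followed by a digit, without the steroidogenic genes Cyp11a1, Cyp11b1, Cyp11b2, Cyp21a1 and Cyp17a1 and without Cyp51 of cholesterol synthesis. This rule gave 94 of 100 such genes, among 22028 protein-coding genes in all, and it used no measured value. Total RNA was sequenced from adrenal tissue of female B6CASTF1/J mice, which are F1 hybrids with 1 CAST parent, at an age of 25 days and with no treatment named. There were 2 libraries in 1 group, replicate 1 and replicate 2, each started from 300 ng of RNA with ERCC spike-ins, synthetic RNAs added to every library. The labels differ on whether the libraries came from separate animals, so each SD is that of these libraries alone and may be technical.

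P450s are heme enzymes that insert an oxygen atom into fats, sterols, vitamins, drugs and pollutants. Most sit in the endoplasmic reticulum and receive electrons from the reductase Por, with cytochrome b5 as a second donor, while the mitochondrial ones use the ferredoxin Fdx1 and its reductase Fdxr. The adrenal cortex is known for its steroid-making P450s, and the liver for a much broader set that handles drugs, fatty acids and bile acids. Families 2, 3 and 4 lie in clusters of close copies.

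The heme is held by a cysteine in a short signature near the end of each P450, and its coding bases show how alike the members are. A pattern for the P450 cysteine heme-iron ligand signature, or a looser form where that failed, was searched in a single coding sequence per gene. That sequence was the longest among the gene's GENCODE M21 transcripts. A match was found in 90 of 94 members, with 73 distinct sequences of 30 bases. There was none in the sequences searched for Cyp20a1, Cyp2b10, Cyp2s1 and Cyp3a59. For Cyp2b10 this was Cyp2b10-201, with 0 counts in both libraries. Cyp2b10-202, which held 100% of the gene's abundance in both, was not searched. The sites below are given for the most abundant members, for Cyp3a11, and for 2 pairs of copies with identical sites. They are printed 5′ to 3′ on the coding strand, with the cysteine codon in capitals.

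Cyp2f2: ttttcggctggacgtcgactgTGTctggga

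Cyp2e1: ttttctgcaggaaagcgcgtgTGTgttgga

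Cyp4f13: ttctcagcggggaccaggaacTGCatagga

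Cyp4b1: ttttctgcagggcccaggaatTGCattggg

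Cyp2d22: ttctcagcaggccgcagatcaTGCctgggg

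Cyp2d26: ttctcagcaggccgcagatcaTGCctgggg

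Cyp2c37: ttctcaacagggaaacggataTGTgcagga

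Cyp2c54: ttctcaacagggaaacggataTGTgcagga

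Cyp3a11: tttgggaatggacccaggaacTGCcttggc

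In mm10 the Cyp3a11 site lies at chr5:145858805-145858834 on the minus strand, in exon 12. The other sites printed cross an exon junction. That of Cyp2f2 joins chr7:27132606-27132615 in exon 9 with chr7:27133216-27133235 in exon 10, on the plus strand. Those of Cyp2e1, on the plus strand, are chr7:140773762-140773771 and chr7:140774558-140774577. Cyp4f13 has chr17:32925324-32925340 and chr17:32924942-32924954, and Cyp4b1 has chr4:115625646-115625662 and chr4:115625216-115625228, both on the minus strand. Cyp2d22 has chr15:82371822-82371831 and chr15:82371706-82371725, and Cyp2d26 has chr15:82790456-82790465 and chr15:82790336-82790355, also on the minus strand. Cyp2c37 has chr19:40009947-40009956 and chr19:40011727-40011746 on the plus strand. Cyp2c54 has chr19:40040192-40040201 and chr19:40038399-40038418 on the minus strand.

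Cyp2d22, which was detected in both libraries, and Cyp2d26, which reached 1 TPM in replicate 1 alone, had identical sites, as had Cyp2c37 and Cyp2c54. Among members at 1 TPM or more in both libraries with a match in the sequence searched, the 120 pairs of sites differed by 2 to 19 bases, with a median of 13. Over the whole coding sequence, the members in both libraries shared few stretches of 51 bases with any other gene. The median share was 0.64% and 8 of 18 shared none, among them Cyp2f2, Cyp2e1, Cyp1b1 and Cyp20a1. The highest was Cyp4f16, at 35.94%, most of it with Cyp4f37. Of the 20 members called lower in replicate 2 (below), 11 shared 20% or more, and the median was 24.15%. Their single-gene counts are therefore less certain than their summed counts, with Cyp2c40 highest at 74.77% and Cyp2a5 at 50.63%.

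Expected counts, the estimated number of reads per gene, summed to 19366343 in replicate 1 and 33728646 in replicate 2, of which nuclear coding genes held 36.3% and 66.1%. The members received 13362 and 35925 counts. Levels below are deposited TPM, a relative transcript abundance that corrects for transcript length. Coding TPM is the same value rescaled to the same sum over nuclear coding genes without Lars2, since other RNA classes took unequal shares. Ratios are log2 of replicate 2 over replicate 1, from counts scaled by TMM with a prior of 1 count. A gene was called lower or higher when it differed at least 2-fold with an adjusted p below 0.05 in an exact conditional binomial test, run at a mean count of at least 10. This test compares these libraries only and covers counting error only.

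Liver markers stood apart between the libraries. All 17, such as albumin (Alb), apolipoproteins and fibrinogen chains, were called lower in replicate 2. Their summed counts were 9242 and 168, and their log2 ratios ranged from -9.06 to -3.96. In replicate 2 the vitamin D carrier Gc and the enzyme Tat had 0 counts. Markers of adrenal cortex, X-zone, chromaffin cells and endothelium had median log2 ratios of 0.03, 0.18, 0.12 and 0.00, those of fibroblasts and capsule -0.28 and those of macrophages 0.19. None of 8 kidney markers reached 1 TPM. Of 5 lung markers, Sftpb, Sftpd and Scgb1a1 had 0 counts in both libraries, Sftpa1 had 2 and 8, and Sftpc had 6 and 42 (0.53 and 1.93 TPM).

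At a threshold of 1 TPM, 18 members were present in both libraries, 12 in replicate 1 alone and 2 in replicate 2 alone, while 62 reached it in neither. Over all protein-coding genes the shares were 51.5% in both, 0.554% in replicate 1 alone and 4.19% in replicate 2 alone. Of the 94 members, 21 had 0 counts in both libraries and 49 stayed under 0.5 TPM in both. A count of 0 allows up to 3 counts, or 0.155 and 0.0889 CPM of the total in replicates 1 and 2, for counting error only. In bulk tissue, fewer cells of a type and less RNA per cell cannot be told apart.

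**Figure D1:**
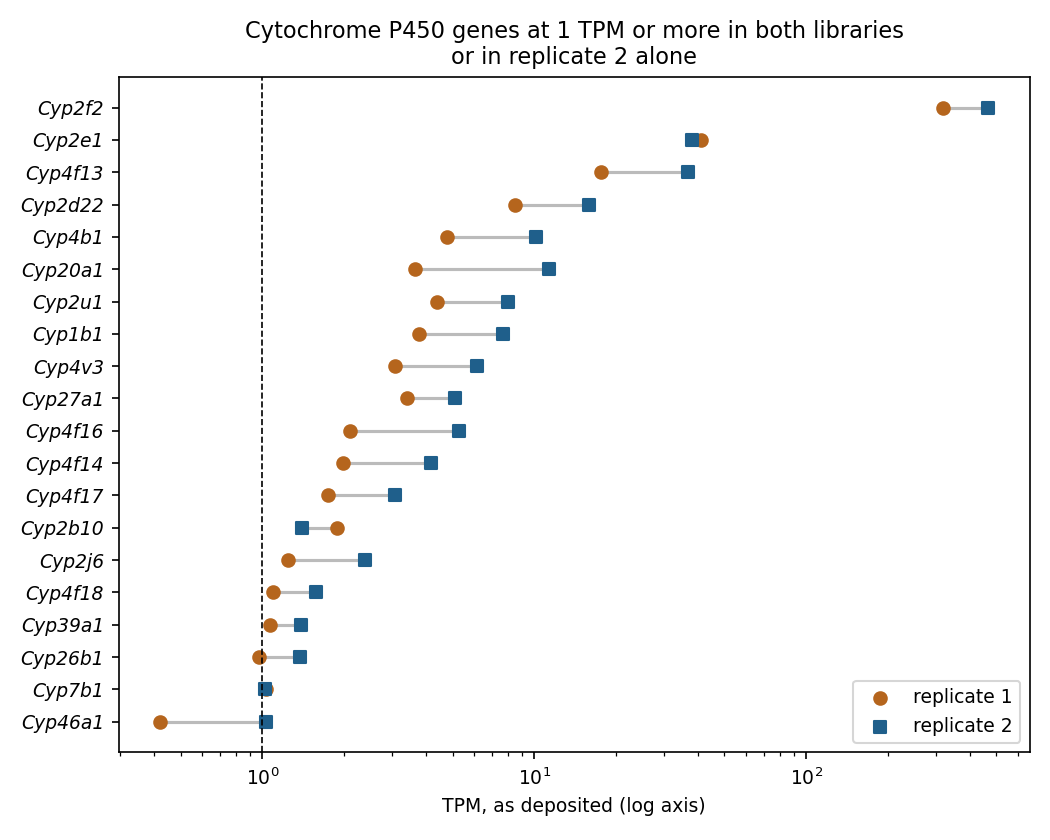
Deposited TPM (log axis) of the 18 P450 genes at 1 TPM or more in both libraries and the 2 that reached it in replicate 2 alone. Circles are replicate 1, squares replicate 2, and the dashed line marks 1 TPM; Cyp2f2, at 319.65 and 467.63, stands above all others, and deposited TPM was higher in replicate 2 for 15 of the 18.

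Cyp2f2 (chr7:27119909-27133660, plus strand), known as a lung enzyme of club cells that oxidises small aromatic compounds such as naphthalene, was by far the most abundant member. It is also on the list of liver-typical P450s used below. Its level was 319.65 TPM in replicate 1 against 467.63 TPM in replicate 2 (394 ± 105, SD, n = 2). It alone held 70.0% and 73.6% of all TPM of the members. On the coding TPM scale it reached 1546 and 1382, rank 42 and 44 of 22014 nuclear coding genes.

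The level of Cyp2f2 was 0.339 and 0.296 times that of Cyp11b1, the last enzyme of corticosterone synthesis, and 12.2 and 8.74 times that of the aldosterone synthase Cyp11b2. From 9200 and 25811 counts its log2 ratio was -0.22 (adjusted p = 1.50e-33, exact binomial test), under the 2-fold limit. By deposited TPM and by total counts its ratio was positive, at 0.55 and 0.69. Cyp2f2 was the highest member in both libraries on every scale used. Of the lung markers, Scgb1a1 of club cells had 0 counts in both libraries and Sftpc of alveolar cells had 6 and 42, and their part in the Cyp2f2 level was not tested. Per 100 counts of the liver markers Cyp2f2 had 99.5 in replicate 1 and 15364 in replicate 2. The part of liver in the Cyp2f2 level was not tested either.

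The RefSeq table (GRCm38.p6) gives the Cyp2f2 promoter, shown here because this gene holds most of the P450 transcript. The stretch is chr7:27119705-27119908 on the plus strand, 5′ to 3′, and ends before the annotated gene start.

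Cyp2f2: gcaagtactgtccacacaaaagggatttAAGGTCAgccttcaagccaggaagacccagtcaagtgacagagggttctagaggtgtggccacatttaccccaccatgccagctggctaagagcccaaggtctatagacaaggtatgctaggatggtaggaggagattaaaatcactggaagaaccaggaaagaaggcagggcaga

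Capitals mark AAGGTCA, the half-site read by the steroidogenic factor SF-1 and other nuclear receptors. It was searched on both strands, as AAGGTCA or TGACCTT, in windows from 250 bases before to 50 after the start. It was found in 5.38% of 27025 genes with a promoter entry and in 7 of the 75 members that had one. Among members in both libraries Cyp2f2 was the only 1 of 13 with it. Of the members called lower in replicate 2 (below), 2 of 17 had it, Cyp2c29 and Cyp3a25. A match describes the letters and is no evidence of binding.

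Cyp2e1 (chr7:140763739-140774987), which oxidises ethanol, acetone and other small molecules, ranked next. It had 40.92 TPM in replicate 1 and 38.16 TPM in replicate 2 (39.5 ± 1.95, SD, n = 2), from 1107.5 and 1990 counts. The deposited TPM were nearly equal, but coding TPM were 198 and 113, higher in replicate 1.

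Scaled by TMM, Cyp2e1 in replicate 1 exceeded that in replicate 2 by 1.82-fold (interval from counting error at 95%, 1.69 to 1.96; adjusted p = 1.18e-51, exact binomial test). This is under 2-fold, and by total counts the log2 ratio turned to 0.04. Per 100 counts of the liver markers it had 11.99 in replicate 1 and 1185 in replicate 2. Of 9 fat markers 8 were at 1 TPM or more in both libraries, with summed counts of 16415 and 38859 over the list. Their median log2 ratio was -0.34, with Ucp1 of brown fat lowest at -0.93, Cfd at 0.04 and Lep highest at 1.84, the only one called (17 and 203 counts). Cyp2e1 is also on the liver-typical list, and the liver markers had summed counts of 9242 and 168. The part of fat or of liver in the Cyp2e1 difference was not tested.

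The family 4 genes, many of which hydroxylate fatty acids and eicosanoids, gave 7 of the 18 members in both libraries. Cyp4f13 led with 17.61 TPM in replicate 1 and 36.70 TPM in replicate 2, from 312 and 1164 counts. Cyp4b1, which acts on fatty acids and on plant furans, had 4.76 and 10.13 TPM. Cyp4v3, an omega-hydroxylase of medium-chain fatty acids, had 3.08 and 6.15 TPM. All 3 had more deposited TPM in replicate 2, and their log2 ratios from scaled counts were 0.19, 0.30 and 0.23, none with an adjusted p below 0.05 in the exact binomial test.

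The chromosome 17 cluster of Cyp4f genes held 8 members, 4 of them in both libraries, and Cyp4f18 on chromosome 8 was a further one. Cyp4f16 had 2.10 and 5.29 TPM, Cyp4f14 1.97 and 4.17, Cyp4f17 1.74 and 3.08 and Cyp4f18 1.09 and 1.58. Cyp4f14 and Cyp4f18 are known for inactivating leukotriene B4. Cyp4f15 stayed under the threshold at 0.40 and 0.66 TPM. No Cyp4f gene was called in either direction, where 2.42% of all genes tested were called lower and 1.14% higher.

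By contrast, no Cyp4a gene reached 1 TPM in either library. These 8 genes on chromosome 4, known as targets of the fatty acid receptor Ppara in liver and kidney, had 42 and 5 counts together. Ppara itself stood at 8.90 and 9.38 TPM.

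Other members of family 2 lie outside the liver-typical list. Cyp2d22 had 8.49 TPM in replicate 1 and 15.94 TPM in replicate 2. Cyp2u1, a fatty acid hydroxylase of brain and thymus, had 4.38 and 8.03 TPM. Cyp2j6, which makes epoxides of arachidonic acid, had 1.24 and 2.39 TPM. Their log2 ratios were 0.19, 0.23 and 0.19, and none had an adjusted p below 0.05 in the exact binomial test. Cyp2s1, an enzyme of barrier tissues, had 0.52 and 0.96 TPM.

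Cyp20a1, an orphan P450 with no settled substrate, had 3.63 TPM in replicate 1 and 11.32 TPM in replicate 2, from 123 and 641 counts. It was the only member in both libraries that was higher in replicate 2 with an adjusted p below 0.05 (log2 ratio 0.67, 95% counting interval 0.39 to 0.96, adjusted p = 9.93e-06, exact binomial test). The difference stayed under 2-fold on the scaled counts. At a 1.5-fold limit it was the single member called higher, where 2.92% of all genes were.

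In a list of 13 P450s that act on fatty acids outside the liver or are orphans, 9 were in both libraries. Of the 11 tested 0 were called, where 2.42% of all genes tested were called lower and 1.14% higher. Their median log2 ratio was 0.22, beside 0.00 for all 16882 genes tested.

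Among family 1, Cyp1b1, which acts on polycyclic aromatics and estrogens and is typical of steroid-making tissues, had 3.78 TPM in replicate 1 and 7.68 TPM in replicate 2. Its 289 and 1085 counts gave a log2 ratio of 0.20. Cyp1a1, the textbook target of the aryl hydrocarbon receptor, had 5 and 3 counts. Cyp1a2, its liver relative, had 35 counts and 1 count. Thus 1 of the 3 genes was present in both libraries. The receptor Ahr had 1.47 and 1.48 TPM and its partner Arnt 14.33 and 28.84 TPM, while the repressor Ahrr had 0.24 and 0.56.

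The sterol and bile acid list had 3 of 6 members in both libraries. Cyp27a1, the mitochondrial sterol 27-hydroxylase, had 3.39 and 5.09 TPM. Cyp39a1, an oxysterol 7-alpha-hydroxylase, had 1.07 and 1.38 TPM, and Cyp7b1, which acts on oxysterols and on DHEA, had 1.03 and 1.02 TPM. The latter sits just inside the threshold, and Cyp26b1, at 0.97 and 1.37 TPM, just outside. Log2 ratios of the 3 were -0.36, -0.42 and -0.78, with no adjusted p below 0.05 in the exact binomial test. By total counts they were all positive (0.55, 0.47 and 0.11).

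Cyp46a1, the cholesterol 24-hydroxylase of neurons, had 0.42 and 1.03 TPM, from 8 and 48 counts. Cyp7a1, the rate-limiting enzyme of bile acid synthesis, had 3 counts and 1 count. Cyp8b1, the sterol 12-alpha-hydroxylase, had 17 and 7. The bile acid receptor Nr1h4 and its target Nr0b2 were nonetheless present, at 6.51 and 12.55 TPM and at 12.18 and 18.32 TPM.

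No vitamin D P450 reached 1 TPM. The 25-hydroxylase Cyp2r1 had 0.68 and 0.66 TPM, the 1-alpha-hydroxylase Cyp27b1 had 0 and 8 counts, and the catabolic Cyp24a1 had 0 in both. Of the retinoic acid hydroxylases, Cyp26b1 had 57 and 183 counts, Cyp26a1 had 0 in both libraries and Cyp26c1 had 0 and 2. The aromatase gene Cyp19a1 also had 0 counts in both. Presence in this group thus came down to Cyp26b1 near 1 TPM.

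The order of the 18 levels was only partly shared. Ordered by coding TPM, 11 of 17 neighbouring pairs had the same order in both libraries, and for 7 pairs the ranges over the libraries did not overlap. These included Cyp2f2 above Cyp2e1, Cyp2e1 above Cyp4f13, Cyp4f13 above Cyp2d22 and Cyp2d22 above Cyp4b1. Below these, Cyp20a1 changed places with Cyp4b1 and with Cyp2u1 between libraries. The median log2 ratio of the 18 was 0.19, beside 0.00 for all genes tested, and 4 of 18 had an adjusted p below 0.05 in the exact binomial test, 3 lower (Cyp2f2, Cyp2e1, Cyp2b10) and 1 higher (Cyp20a1).

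Of the 94 members, 43 had a mean count of at least 10 and were tested, and 51 were not. Of those tested, 20 were called lower in replicate 2, where 2.42% of all 16882 genes were, and 0 were called higher, where 1.14% of all genes were. None was 2-fold higher even at an unadjusted p below 0.05. All 20 belong to a list of 44 liver-typical P450s, of which 24 were tested. That list was drawn up with results of these data known, so it is not independent evidence of direction. The 4 others tested were Cyp2f2, Cyp2e1, Cyp4f14 and Cyp4f15. Scaled by total counts, 18 members were lower, without Cyp2b10 and Cyp2c23, where 1.11% of all genes were, and 12 were higher, where 36% of all genes were.

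**Figure D2:**
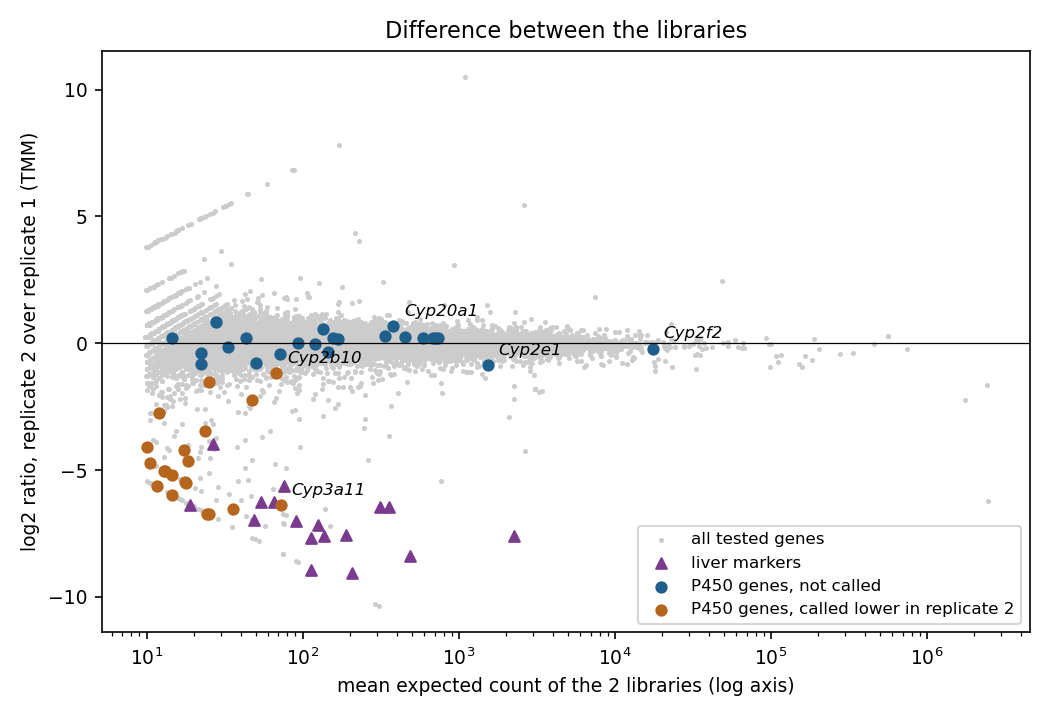
Log2 ratio of replicate 2 over replicate 1 (TMM-scaled counts) against the mean expected count (log axis) for all 16882 tested genes in grey, the 17 liver markers as triangles, and the 43 tested P450 genes as circles. The 20 P450 genes called lower range from -6.75 to -1.18, and the liver markers from -9.06 to -3.96, while the other P450 genes lie between -0.86 and 0.84.

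The 12 members at 1 TPM or more in replicate 1 alone were all among the 20, along with 7 members under 1 TPM in both libraries and Cyp2b10. These 12 were picked as lower in replicate 2 by TPM from the same reads. Their calls are therefore largely set by that choice and are no separate evidence of direction. In replicate 2, 4 of the 20 had 0 counts, 9 had 1 to 3 and 7 had more. Genes with 3 counts or fewer there could reach the minimum mean count only through replicate 1. Such genes could only be called lower in replicate 2. Liver markers were lower in the same library, with summed counts of 9242 and 168, and their part in these calls was not tested.

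Of the Cyp3a genes on chromosome 5, whose products carry out much of drug and steroid hydroxylation in liver, all 9 members together had 250 and 13 counts. Cyp3a11 led with 141 counts (3.85 TPM) in replicate 1 and 4 counts (0.06 TPM) in replicate 2, 115-fold lower in the latter (95% counting interval 44.0 to 429, adjusted p = 2.44e-80, exact binomial test). Cyp3a25 had 71 counts and 1 count, a ratio of 232 (95% counting interval 40.3 to 9292.5). Both reached 1 TPM in replicate 1 alone. The receptor that induces Cyp3a genes, Nr1i2, had 0 counts in both libraries.

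The Cyp2c genes on chromosome 19, known for drug and arachidonic acid oxidation, were 15 members with 296 and 35 counts in all, and 8 of them were called lower. Cyp2c50 had 50 counts and 0, at least 54.5-fold lower in replicate 2 against the floor of 3 counts in that library. By the same floor Cyp2c69, with 49 and 0, was at least 53.4-fold lower, Cyp2c29, with 29 and 0, at least 31.6-fold, and Cyp2c37, with 23 and 0, at least 25.1-fold. The floor takes the counts of replicate 1 as exact. With their counting error the lower limits of the 95% intervals were 42.7, 41.8, 24.1 and 18.8. Cyp2c40 had 28 counts and 1, and Cyp2c54 had 25 and 1. Cyp2c70, a bile acid hydroxylase of rodents, had 31 and 4. Cyp2c37, Cyp2c40, Cyp2c50, Cyp2c54 and Cyp2c69 shared 26.34% to 74.77% of their stretches of 51 bases with other genes, so the split of reads among them is uncertain, whereas Cyp2c29 shared 2.39% and Cyp2c70 none.

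Cyp2c23 stood apart among the Cyp2c genes, with 24 counts (0.81 TPM) in replicate 1 and 26 counts (0.46 TPM) in replicate 2. It also lies away from them, starting at chr19:44005022, while the others end by chr19:40187333. It makes epoxides of arachidonic acid, above all in kidney. It was 3.02-fold lower in replicate 2 (95% counting interval 1.66 to 5.47, adjusted p = 0.00184, exact binomial test). The 8 kidney markers together had 28 and 38 counts, of which Lrp2 had 22 and 22 (log2 ratio -1.64), and Kap and Slc34a1 had 0 in both libraries. Their part in the Cyp2c23 difference was not tested.

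Among the Cyp2a genes, which include the mouse coumarin and testosterone hydroxylases, 3 of 4 were called. Cyp2a12 had 57 counts (2.01 TPM) and 38 counts (0.59 TPM), 4.90-fold lower in replicate 2 (95% counting interval 3.20 to 7.60). Cyp2a5 had 38 and 10 counts and Cyp2a4 had 25 and 1, and these copies have identical heme-site sequences. Cyp2b10, the classical target of the receptor Nr1i3, had 1.88 TPM in replicate 1 and 1.40 TPM in replicate 2, from 56 and 80 counts. It was 2.29-fold lower by scaled counts (95% counting interval 1.60 to 3.26, adjusted p = 6.95e-05, exact binomial test) and was the only called member present in both libraries. Nr1i3 itself had 18 counts and 0, too few to be tested.

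The remaining called members came from the Cyp1a, Cyp2d, Cyp2j, Cyp4a and Cyp8b subfamilies. Cyp2d10 had 34 counts and 3, and Cyp2d26 had 34 and 1, while their neighbour Cyp2d22 had 297 and 1109. Cyp1a2 had 35 and 1, Cyp2j5 20 and 1, Cyp4a14 18 and 2 and Cyp8b1 17 and 7. All were higher in replicate 1, although that library had fewer counts overall. Below the test's minimum, Cyp2d9, Cyp2c68 and Cyp2c67 reached 0.54 to 0.78 TPM in replicate 1, with at most 1 count in replicate 2. The other genes of these clusters added little. All 5 Cyp2b genes held 68 and 83 counts, of which Cyp2b10 had 56 and 80, and 2 of them had 0 in both libraries. Of the 8 Cyp2j genes on chromosome 4, with 97 and 299 counts mainly from Cyp2j6, 4 had 0 in both. Of the 8 Cyp2d genes, 2 had 0 in both.

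**Figure D3:**
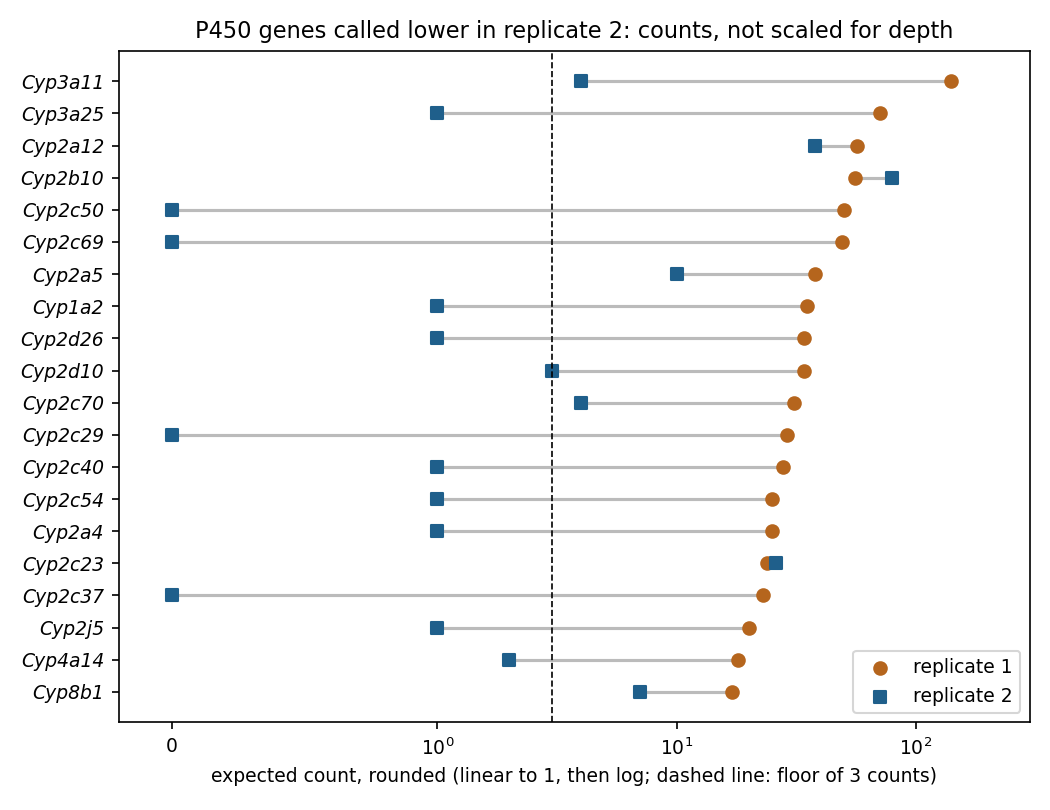
Expected counts, rounded and not scaled for depth, of the 20 P450 genes called lower in replicate 2 (circles replicate 1, squares replicate 2, dashed line the floor of 3 counts; axis linear to 1 and then logarithmic). Most have 4 counts or fewer in replicate 2, whereas Cyp2a12, Cyp2b10, Cyp2c23, Cyp2a5 and Cyp8b1 had between 7 and 80.

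Set against the liver markers, the 20 divided. Per 100 liver-marker counts, 14 genes had 95% counting intervals that overlapped between the libraries, and their summed counts were 583 and 16. Except for Cyp3a11, at 4 counts, these genes had 3 counts or fewer in replicate 2. There a count of 0 or 1 beside 168 gave an interval starting at 0 or 0.015. Overlap could thus hardly fail at such counts, and it does not show that these genes followed the liver markers. The other 6, Cyp2a12, Cyp2a5, Cyp2b10, Cyp2c23, Cyp2c70 and Cyp8b1, had 223 and 165 counts, with the interval of replicate 2 above that of replicate 1. Cyp3a11 had 1.53 and 2.38 per 100, whereas Cyp2b10 had 0.606 and 47.6 and Cyp2c23 0.260 and 15.5. The division was made from these counts after they were seen and is a description. It was not repeated on the second quantification, the other counts that the authors deposited. There Cyp2j5, of the 14, had 22 and 9 counts, and Cyp2a5, of the 6, had 37.25 and 3.61.

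**Figure D4:**
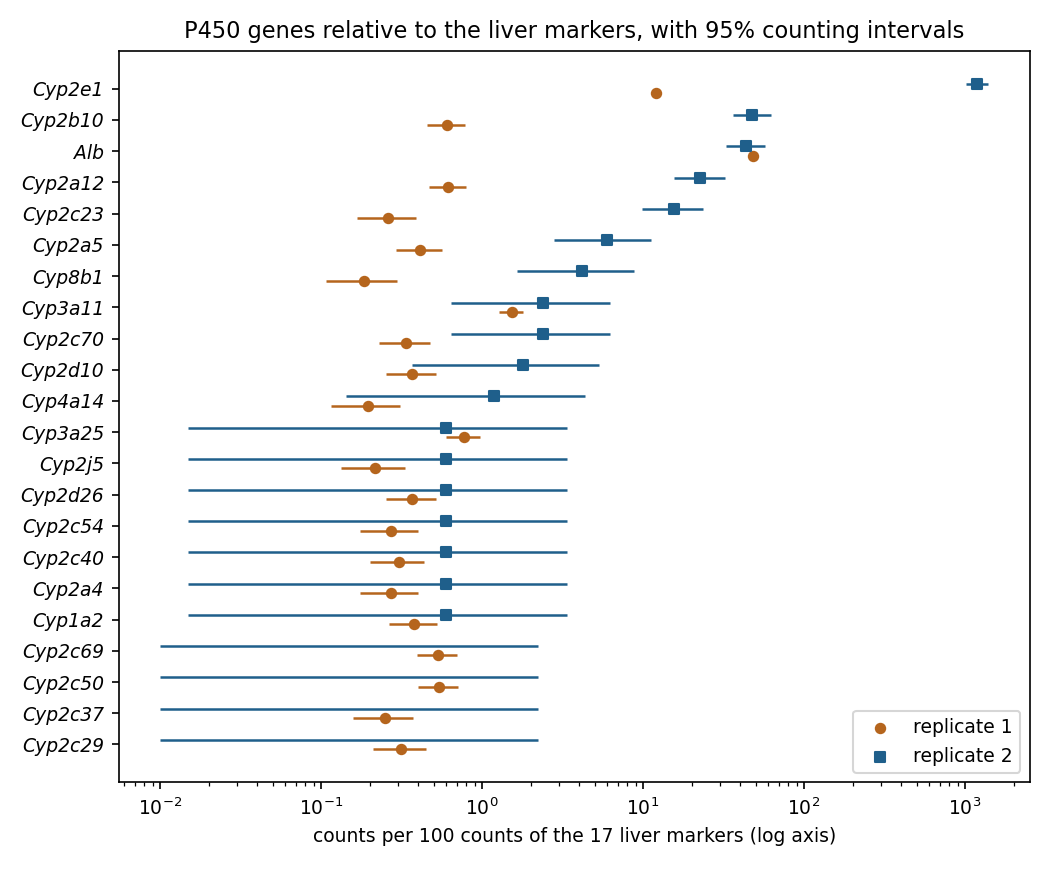
Counts of Alb, Cyp2e1 and the 20 called P450 genes per 100 counts of the 17 liver markers (log axis), with 95% counting intervals; circles are replicate 1 and squares replicate 2, and genes at 0 counts show only their interval, drawn from 0.01. Cyp2e1 goes from 11.99 to 1185 and Cyp2b10 from 0.606 to 47.6. The intervals of 14 called genes overlap between libraries, and the low replicate 2 counts of these genes make them wide.

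The promoters of the called genes are described by their letters alone. TATAAA, the core of a TATA box, was searched on the gene's strand in the RefSeq windows. It was found in 9 of 17 called members with an entry and in 1 of 13 members in both libraries (Cyp2e1). It was in 26 of all 75 members with an entry, 34.67%, where 9.77% of all genes hold it. Stretches around it are shown for that gene and for 3 called ones with the motif at a like distance from the start, with TATAAA in capitals.

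Cyp2e1: tcaacgacacgtTATAAAatccttgtttct

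Cyp1a2: agtgggtggtgtTATAAAaggcccctcgtc

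Cyp2a5: tgtctctggatgTATAAAagcaagctaatt

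Cyp8b1: gcattgccaactTATAAAggccacataaag

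In GRCm38.p6 these are chr7:140763776-140763805 and chr7:26835298-26835327 on the plus strand for Cyp2e1 and Cyp2a5, and chr9:57683667-57683696 and chr9:121916319-121916348 on the minus strand for Cyp1a2 and Cyp8b1. In these 4, chosen for that, the motif begins 29 to 31 bases before the RefSeq start. In other called genes it begins elsewhere, at 28 bases in Cyp2a4, 39 in Cyp2a12, 19 in Cyp2c29 and 234 in Cyp3a11. For Cyp2c40 and Cyp2c69 its position in the window was not listed. The core read by the aryl hydrocarbon receptor, GCGTG or CACGC on either strand, was in 6 of 13 members in both libraries. It was in 1 of 17 called members (Cyp2b10, which belongs to both sets) and in 16 of all 75 members with an entry, 21.33%. Of all genes 35.15% hold it. A gene with several windows, such as Cyp4f14, counted when any of them matched. This core was in the window of Cyp1b1 and not in that of Cyp2f2. These motifs were picked with the levels known.

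The partners that P450s need were present throughout. All 10 annotated redox partners were above 1 TPM in both libraries. Of these 0 were called, where 2.42% of all genes tested were called lower and 1.14% higher. The reductase Por had 54.27 and 90.77 TPM, cytochrome b5 (Cyb5a) 90.86 and 147.40, and the mitochondrial Fdxr 281 and 464. Fdx1, which also serves Cyp11a1 and Cyp11b1, had 446 and 534 TPM with a log2 ratio of -0.52 (adjusted p = 6.98e-118, exact binomial test), under 2-fold.

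Of 24 regulators of P450 genes, 17 were present in both libraries, and 1 of the 21 tested was called lower, beside 2.42% of all genes. That one was Hnf4a, which sustains P450 expression in liver, with 35 counts in replicate 1 and 1 in replicate 2, the same direction as the liver markers. Among those not called were the glucocorticoid receptor Nr3c1 at 8.21 and 14.41 TPM and Nfe2l2 at 22.36 and 34.77 TPM. The eicosanoid P450s without a Cyp symbol were also present. Ptgis, the prostacyclin synthase, had 3.73 and 8.19 TPM, and Tbxas1, the thromboxane synthase, had 1.63 and 1.75 TPM.

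Not all of this RNA was assigned to protein-coding transcripts. For 10 of the 18 members in both libraries, coding transcripts held at least 90% of the gene's abundance in both. For Cyp4f13, with 14 annotated transcripts, they held 41.59% in replicate 1 and 35.78% in replicate 2, and for Cyp4f16 37.94% and 30.67%. In these genes most of the rest lay on retained-intron transcripts. Cyp2d22 had 56.60% and 69.61% on coding transcripts, Cyp27a1 73.08% and 59.43%, and Cyp20a1 67.45% and 69.62%.

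The leading transcript was the same in both libraries for 17 of the 18, the exception being Cyp4f14. For 15 it was also the same in the second quantification. For Cyp20a1 the rest moved between classes. Its retained-intron transcript went from 0 to 25.25%, and its transcript marked for nonsense-mediated decay from 32.55% to 5.13%. These shares rest on 123 and 641 counts and were not tested.

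**Figure D5:**
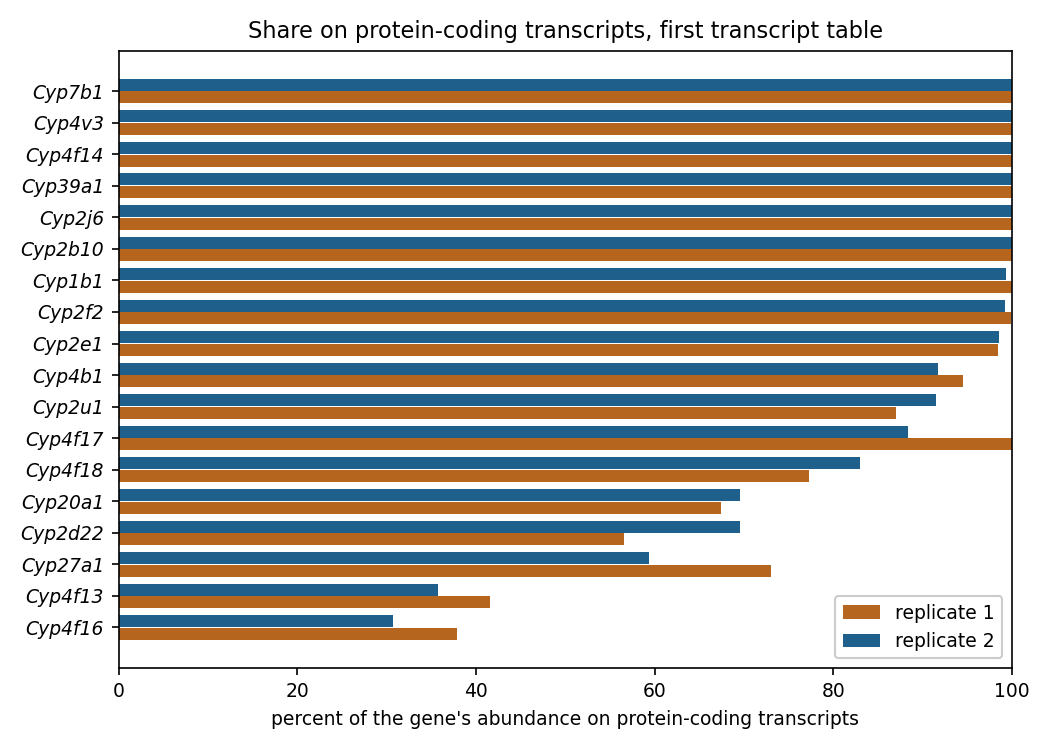
Percent of each gene's abundance on protein-coding transcripts in the first transcript table, for the 18 P450 genes in both libraries; bars start at 0, with replicate 1 and replicate 2 in separate colours. Cyp4f16 and Cyp4f13 are lowest in both libraries, at 37.94% and 30.67% and at 41.59% and 35.78%, and 10 genes are at 90% or more in both.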

How the data were processed

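Total RNA of 2 adrenal libraries was analysed from 1 gene table and 2 transcript tables per library. Per the notes deposited beside the files, reads were quantified against mm10 with GENCODE M21. The program used for this is not given in the sources used here. Gene tables hold TPM and expected counts, as the authors deposited them, and the counts were rounded for tests and scaling. The first transcript table adds a percent per transcript, per the file headers, that is its part of the gene. The second table holds estimated counts and TPM deposited by the authors, which were summed per gene as an alternative.

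TMM factors came from edgeR 4.0.16 in R 4.3.3, with DESeq2 1.42.0 size factors, spike-ins and total counts as alternatives. With 1 group and 2 libraries edgeR's quasi-likelihood test could not be fitted. An exact two-sided conditional binomial test was run for genes whose mean count reached 10 and was adjusted by Benjamini-Hochberg over all 16882 genes tested. Its code was first run on simulated counts. Fold intervals are Clopper-Pearson at 95%, and without molecular identifiers reads cannot be taken as independent molecules.

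Named were all members at 1 TPM in both libraries, all called, and those at 0.5 to 1 TPM; other genes came from fixed lists. The rule for the members used no measured value, but this group of genes and the lists were chosen with earlier results of these data known. Promoter entries matched 75 of 94 members. Stretches of 51 bases were compared over all GENCODE M21 transcripts. Python 3.11.15, scipy 1.17.1 and matplotlib 3.10.9 were used.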

Additional observations from a re-analysis of the deposited data

How the results depend on the processing

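The count of 18 members at 1 TPM in both libraries was 11 at 2 TPM, and it was 20 to 30 when 1 library was left out, 30 being replicate 1 alone. At 0.5 TPM, by coding TPM, in the second quantification and with at least 10 counts in both it was 18 to 25. The 20 calls lower in replicate 2 became 0 at a mean count of at least 100, where 14 members were tested and none of the 20 reached that count, and 32 with no minimum. Under the other settings there were 18 to 21, and 4-fold lost Cyp2b10 and Cyp2c23. The 0 calls higher became 12 by total counts and 1 at 1.5-fold (Cyp20a1), and stayed 0 otherwise. The median log2 ratio of the 18 was 1.10 by total counts and 0.89 by deposited TPM, and between 0.11 and 0.35 otherwise. Total counts shifted the median of all genes tested to 0.91, and spike-ins to 0.16. Over all genes the calls were 409 lower and 192 higher, against 341 and 335 by spike-ins and 188 and 6070 by total counts. No paired analysis was possible because there was 1 group. Without either library no ratio exists. The minimum mean count of 10 left 51 members untested, 21 of which had 0 counts in both libraries. Of the 20 called, 13 had 3 counts or fewer in replicate 2.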

Other observations

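Of 31 loci with a Cyp symbol that are not protein-coding, 5 had more than 3 counts in either library. The pseudogene Cyp21a2-ps of the steroid 21-hydroxylase was the only one at 1 TPM or more in both, with 55.86 TPM in replicate 1 and 118.44 TPM in replicate 2. It is a copy of Cyp21a1, which had 1266 and 2474 TPM, so the split of reads between these near-identical genes is uncertain. Cyp2a21-ps, a pseudogene in the Cyp2a cluster, had 5.28 and 16.97 counts, a log2 ratio of 0.05, beside -2.25 for Cyp2a12.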
